A study of Homo sapiens with 6 samples.

Results

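The genes described here are 41 members of the cholesterol and fatty acid synthesis pathways, taken as listed gene symbols and matched to the gene identifiers of the deposited tables. All 41 were found among the 39282 genes of each table, 25 in the sterol branch and 16 in the fatty acid branch. Of these, 40 passed the filter on low counts and were tested together with all 16855 genes that passed it. The remaining gene, THRSP, a lipogenic factor of liver and fat, had 3 counts with hairpin 1 in PA-1 and 0 counts in the other libraries, and no fold is given for it. A count of 0 still leaves room for up to 3 counts, which is 0.153 to 0.202 CPM depending on the library, where CPM is the usual read count scaled for depth.

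The data were 6 libraries of poly(A)-selected RNA from PA-1, a human ovarian teratocarcinoma line, and TOV21G, a human ovarian clear cell carcinoma line. Every culture carried a lentiviral short hairpin RNA: a scramble hairpin (sh-Ctrl) in the control, or sh-MEX3A#1 or sh-MEX3A#2 against MEX3A, which encodes an RNA-binding ubiquitin ligase. These are called control, hairpin 1 and hairpin 2 below, and each line had 1 library of each. PA-1 grew in EMEM and TOV21G in a mixture of MCDB 105 and Medium 199 with a larger share of serum, so line and medium cannot be told apart. Each disease type was represented by a single line, and the series' design text calls each depleted culture a clone. The labels do not state whether cultures were separate, and p-values therefore describe no more than how far these libraries lie apart. The hairpins are different reagents, and both hairpin differences of a line share its single control library, whose spread was taken to equal that of the hairpins. The edgeR fit pooled that spread over both lines, so each SE and p below reflects the hairpins of PA-1 and TOV21G together. Its common coefficient of variation between libraries of a group was 0.295 pooled, 0.164 with PA-1 alone and 0.387 with TOV21G alone. The SE and p are thus not the uncertainty of 1 line by itself.

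Cells make cholesterol from acetyl-CoA through mevalonate, squalene and lanosterol, and make fatty acids from the same acetyl-CoA through malonyl-CoA. Both branches are controlled by the SREBP transcription factors, encoded by SREBF1 and SREBF2. SCAP escorts the SREBP precursors from the endoplasmic reticulum to the Golgi, where they are cleaved, when sterols are scarce, and the INSIG proteins hold SCAP back when sterols are plentiful. Released SREBP binds sterol regulatory elements in promoters, usually beside CCAAT boxes bound by NF-Y or GC boxes bound by Sp1, and INSIG1 is itself a target.

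The targeted gene was lower in every hairpin library, with MEX3A at 137 CPM in the PA-1 control against 41.2 and 54.9 CPM with hairpins 1 and 2, and at 78.3 CPM in the TOV21G control against 40.1 and 33.1 CPM. Total expected counts ranged from 14654628 to 19495162 per library. The source label calls both lines ovarian surface epithelial cells. The 6 teratocarcinoma markers (SOX2, LIN28A, LIN28B, DPPA4, L1TD1, SALL4) summed to 2449 to 3688 CPM in PA-1 and 25.4 to 80.2 CPM in TOV21G, and 5 clear cell markers (ANXA4, SPP1, KRT7, KRT18, TFPI2) to 2482 to 6792 CPM in TOV21G and 305 to 1119 CPM in PA-1. SPP1 supplied most of the TOV21G sum. KRT7 was at 0 in PA-1 and reached only 1.17 to 3.83 CPM in TOV21G, and KRT18 did not separate the lines, at 118 to 183 CPM in PA-1 and 81.3 to 139 CPM in TOV21G. The 6 blood markers summed to at most 0.527 CPM, with HBB at 0 in every library. The 5 hepatocyte or adipocyte markers summed to 0.130 to 1.40 CPM, with FABP4 at 0 in every library. The 4 endothelial markers summed to 123 to 246 CPM in PA-1, mostly from PECAM1 and KDR, and to 0.325 to 2.42 CPM in TOV21G.

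Promoter sequences are shown for INSIG1, SCD and SREBF2, the members with a sterol regulatory element core in the window, and for EBP, which had the smallest p in TOV21G. They are the 250 bases before the annotated start, from RefSeq on GRCh38.p14, written 5′ to 3′ on the gene's strand, which is the plus strand for all 4. Capitals mark matches on either strand to CACNCCAC, used here as the core of the element, and to CCAAT. INSIG1 lies at chr7:155297628-155297877, SCD at chr10:100346983-100347232, SREBF2 at chr22:41832855-41833104 and EBP at chrX:48521558-48521807.
INSIG1: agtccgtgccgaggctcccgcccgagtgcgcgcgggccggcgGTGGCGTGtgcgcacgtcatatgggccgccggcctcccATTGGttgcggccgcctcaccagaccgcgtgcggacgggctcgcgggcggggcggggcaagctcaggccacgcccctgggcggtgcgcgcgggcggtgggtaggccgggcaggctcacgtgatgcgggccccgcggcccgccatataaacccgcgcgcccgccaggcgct
SCD: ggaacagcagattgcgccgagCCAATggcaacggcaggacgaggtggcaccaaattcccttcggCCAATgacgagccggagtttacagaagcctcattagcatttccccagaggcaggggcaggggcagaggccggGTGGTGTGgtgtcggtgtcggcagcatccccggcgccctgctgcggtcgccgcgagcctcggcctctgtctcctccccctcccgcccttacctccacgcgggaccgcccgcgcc
SREBF2: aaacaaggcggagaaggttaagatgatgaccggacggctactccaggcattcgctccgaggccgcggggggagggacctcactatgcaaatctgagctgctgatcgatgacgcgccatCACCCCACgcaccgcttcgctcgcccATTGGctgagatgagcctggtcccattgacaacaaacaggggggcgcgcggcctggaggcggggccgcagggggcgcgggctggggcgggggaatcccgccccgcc
EBP: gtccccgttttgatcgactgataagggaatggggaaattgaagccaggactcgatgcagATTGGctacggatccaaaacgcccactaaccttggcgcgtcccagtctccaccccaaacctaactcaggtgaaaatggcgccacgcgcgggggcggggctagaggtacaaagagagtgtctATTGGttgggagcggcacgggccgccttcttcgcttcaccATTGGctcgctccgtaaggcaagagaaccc

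Of the 41 members, 37 had an entry in the promoter table, and ACAT2, FDFT1, SQLE and FASN did not. The core CACNCCAC, searched on both strands, was found in 3 of the 37 windows (8.11%) and in 4.72% of all 27305 promoters of the same length. In INSIG1 it ended 201 bases before the start, in SREBF2 125 bases and in SCD 107 bases. CCAAT was found in 23 of 37 windows (62.2%) against 33.0% of all promoters, and GGGCGG, the GC box, in 31 (83.8%) against 42.3%. CACGTG, an E-box, was found in SC5D, INSIG1, SCAP and ELOVL5, which is 10.8% of the windows against 6.49% of all promoters. None of the matches in capitals overlapped a match to another of these motifs. The set of all promoters was not limited to genes expressed here, and no difference in share was tested. A match describes letters in a window and was not a test of binding.

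The first comparison asked how the pathways stood in PA-1 after MEX3A depletion. Of the 40 tested members, 33 were lower with both hairpins, 1 was higher and 6 differed in sign between hairpins, where 34% of all genes tested were lower with both and 33.8% higher. The differences were small, with a median over members of -0.28 log2 CPM with hairpin 1 and -0.25 with hairpin 2, against 0 over all genes tested with each. On log2(TPM + 1), the deposited length-scaled values, the medians were -0.19 and -0.24 against 0.06 and 0 over all genes, and 29 members were lower with both and 3 higher. At least 1.5-fold lower with both were 3 members (SCD, INSIG1 and NPC1L1), beside 2.74% of all genes, and at least 1.5-fold higher were 0, beside 7.3%. Neither edgeR's quasi-likelihood test nor DESeq2 called any member at an adjusted p under 0.05. The targeted gene, MEX3A, was not called by edgeR either, although it stood at 30.0% and 40.0% of the control with hairpins 1 and 2. DESeq2 did call MEX3A (adjusted p = 0.0428). The absence of edgeR calls therefore does not show that the members were unchanged. edgeR called 0 of 16855 genes (0%) and had 434 (2.57%) at an unadjusted p under 0.05, none of them members, and DESeq2 called 36 genes (0.214%). In bulk RNA, fewer cells with an RNA and less of it per cell cannot be told apart.

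**Figure D1:**
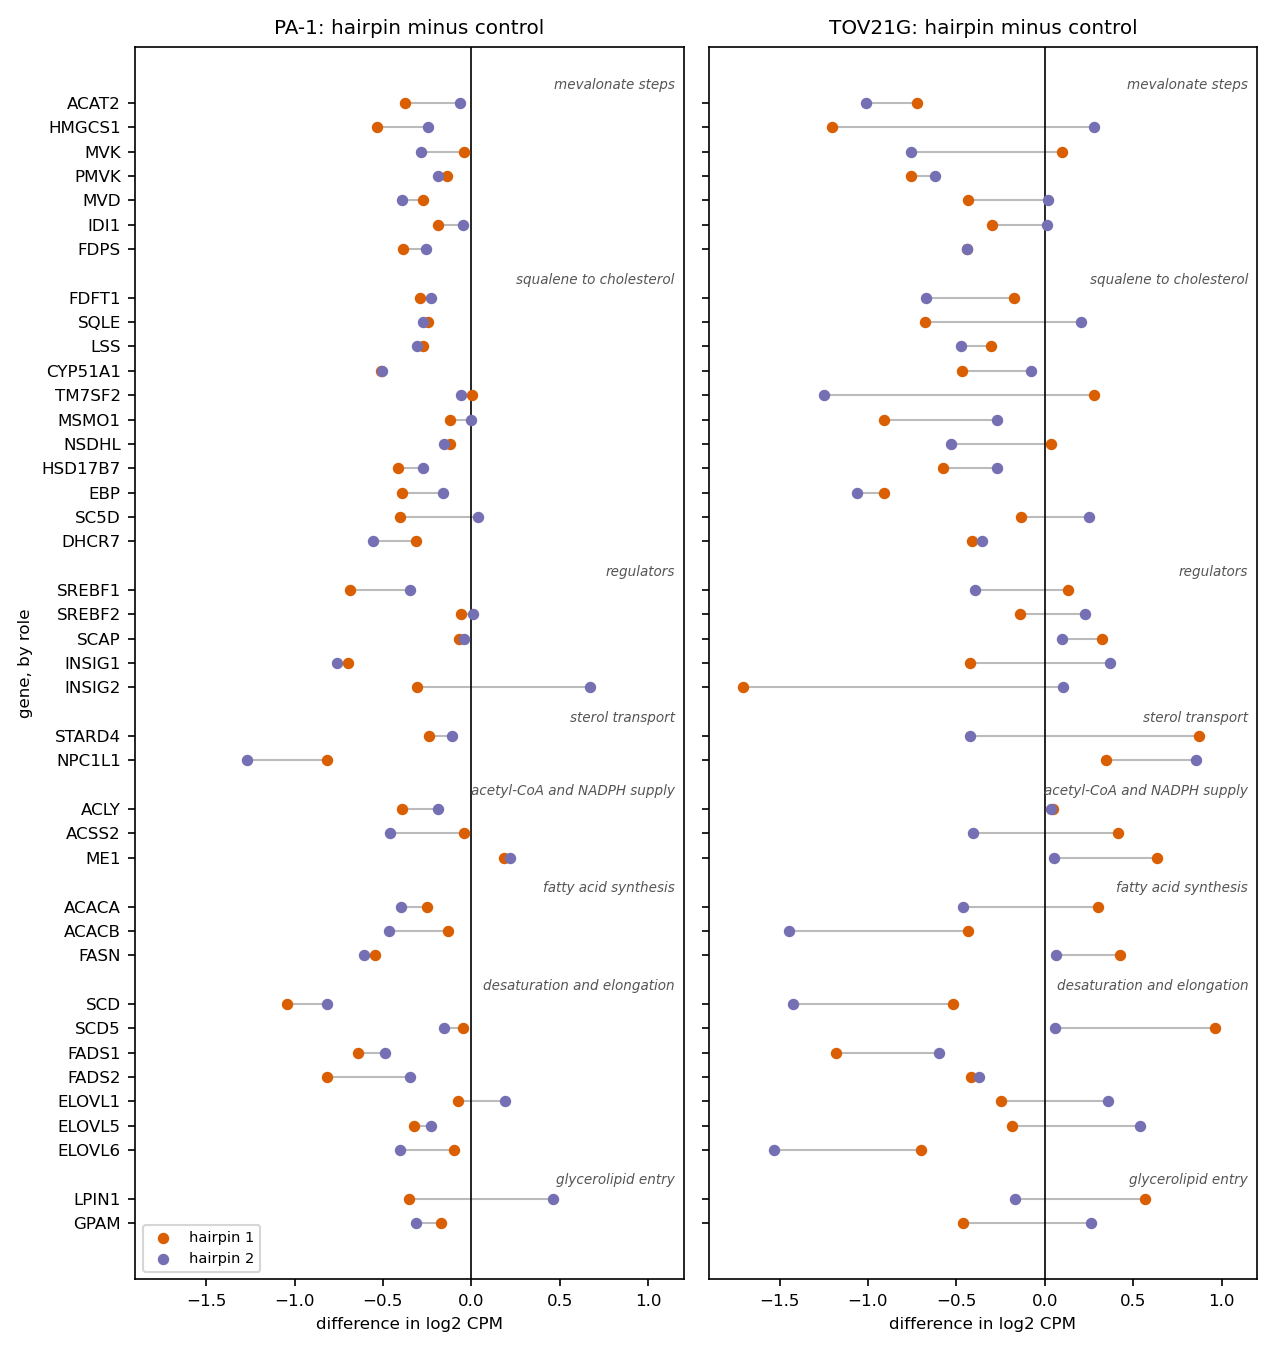
Difference in log2 CPM between each hairpin library and the control of its line for the 40 tested members, grouped by role, with PA-1 on the left and TOV21G on the right; a grey line joins the hairpins of a gene. In PA-1 33 genes lie left of 0 with both hairpins, and in TOV21G 15 do while 19 straddle 0.

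In the mevalonate steps of PA-1, all 7 members were lower with both hairpins. These are ACAT2 (acetoacetyl-CoA formation), HMGCS1 (HMG-CoA synthase), the kinases MVK and PMVK, the decarboxylase MVD, the isomerase IDI1 and FDPS (farnesyl diphosphate synthase). Their median differences were -0.27 and -0.24. HMGCS1 stood at 553 CPM in the control, 383 CPM with hairpin 1 and 467 CPM with hairpin 2. The other 6 stood at 76.2% to 97.0% of the control in the hairpin libraries. MVK became split in sign on TPM. Between squalene and cholesterol, 9 of 11 were lower with both and 2 were split. CYP51A1, the lanosterol demethylase, had 181 CPM in the control and 127 and 128 CPM with the hairpins, which nearly coincided and lay below the control. Its log2 fold change was -0.51 (SE 0.27, edgeR adjusted p = 1). DHCR7, the last reductase of the Kandutsch-Russell branch, stood at 83.3 CPM against 67.0 and 56.7 CPM (-0.43, SE 0.24). HSD17B7, a sterol ketoreductase, was at 16.2 CPM against 12.1 and 13.4 CPM. Its pseudogene HSD17B7P2, with which it may share reads, was higher with both at 2.20 CPM against 4.55 and 3.36 CPM. FDFT1, SQLE (squalene epoxidase), LSS (lanosterol synthase), NSDHL (a sterol dehydrogenase) and EBP (a sterol isomerase) stood at 76.2% to 91.9% of the control. SC5D and TM7SF2, a desaturase and a reductase, were the members split in sign. MSMO1, the sterol methyl oxidase, was at 174 CPM in the control and with hairpin 2 and at 160 CPM with hairpin 1.

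The regulators of PA-1 did not all follow the enzymes. INSIG1 (chr7:155297878-155310235) had 72.5 CPM in the control against 44.6 and 42.8 CPM, so both hairpin libraries lay near 60% of the control, at 61.5% and 59.0%. Its log2 fold change was -0.73 (SE 0.37, edgeR adjusted p = 1). SREBF1 stood at 53.1 CPM against 32.9 and 41.8 CPM (-0.51, SE 0.33). SREBF2 was at 339, 325 and 341 CPM and SCAP at 88.1, 84.0 and 85.7 CPM in control, hairpin 1 and hairpin 2, within 5% of the control in every case. For SREBF2 and SCAP the sign depended on the scaling. INSIG2, the INSIG paralog, was split, at 17.7, 14.3 and 28.2 CPM. Of the transport genes, STARD4, a cytosolic sterol carrier, was at 102 CPM against 86.8 and 94.9 CPM. NPC1L1, the cholesterol uptake protein of gut and liver, rested on 32 counts in the control against 18 and 15, or 2.01 CPM against 1.09 and 0.763 CPM.

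SCD had the highest level per length of all members in PA-1, at 1250 TPM in the control, followed by FDFT1, squalene synthase, at 372 TPM. SCD, the delta-9 desaturase that makes oleate, lies at chr10:100347233-100364826 in GRCh38. It stood at 2867 CPM in the control, 1389 CPM with hairpin 1 and 1626 CPM with hairpin 2. Both hairpin libraries were thus well below the control, at 48.5% and 56.7% of it. The log2 fold change was -0.93 (SE 0.40, edgeR adjusted p = 1). SCD alone made up 31% of the members' summed CPM in the control and 22.1% and 23.8% with the hairpins. The sum over all members was 9253 CPM in the control against 6285 and 6842 CPM, and without SCD it was 6386 CPM against 4895 and 5217 CPM.

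Of the 15 tested fatty acid members in PA-1, SCD among them, 12 were lower with both hairpins, 1 was higher and 2 were split. The lowest fitted fold change among them was that of SCD. FASN, fatty acid synthase (chr17:82078338-82098236), was at 1053 CPM against 722 and 691 CPM, with a log2 fold change of -0.58 (SE 0.25, edgeR adjusted p = 1). FADS1 and FADS2, the delta-5 and delta-6 desaturases of polyunsaturated fatty acids, are neighbours on chromosome 11 whose gene bodies overlap by 801 bases on opposite strands, and the strand setting of the counting was not stated. FADS1 had 334 CPM against 214 and 238 CPM (-0.56, SE 0.31), and FADS2 had 423 CPM against 240 and 333 CPM (-0.56, SE 0.28). Both lay below their control in each hairpin library. The carboxylases that make malonyl-CoA stood at 464, 390 and 353 CPM for ACACA and 24.1, 22.0 and 17.4 CPM for ACACB in control, hairpin 1 and hairpin 2. SCD5, the second human delta-9 desaturase, was low in PA-1, at 0.692, 0.667 and 0.610 CPM, from 11, 11 and 12 counts. Of the elongases, ELOVL5 was at 338, 270 and 288 CPM, ELOVL6 at 190, 178 and 143 CPM, and ELOVL1 at 16.5, 15.7 and 18.8 CPM. ELOVL1, which extends saturated very long chains, was split, while ELOVL5 (polyunsaturated chains) and ELOVL6 (palmitate to stearate) were lower with both. ACLY, which makes cytosolic acetyl-CoA from citrate, was at 436 CPM against 332 and 383 CPM. ACSS2, which makes it from acetate, was at 26.9 CPM against 26.1 and 19.5 CPM. ME1, the NADPH-forming malic enzyme, was the member higher with both hairpins, at 16.2 CPM against 18.4 and 18.9 CPM (0.20, SE 0.33). LPIN1, a phosphatidate phosphatase, was split at 10.9, 8.49 and 15.1 CPM, and GPAM, the first glycerol acyltransferase, was at 42.1, 37.4 and 33.8 CPM.

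Other measures moved in the same PA-1 libraries. The teratocarcinoma markers summed to 3688 CPM in the control against 2449 and 2779 CPM, most of it LIN28A, but did not move together. SOX2, LIN28A and LIN28B were lower with both hairpins. DPPA4 was higher with both, at 4.72 CPM against 5.58 and 16.8 CPM. L1TD1 was split at 12.5, 6.67 and 17.1 CPM, as was SALL4 at 223, 235 and 200 CPM. The clear cell markers summed to 305 CPM against 1064 and 1119 CPM, most of it SPP1, and the endothelial markers to 138 CPM against 123 and 246 CPM. The 10 proliferation genes summed to 2426 CPM in the control against 2103 and 1980 CPM, and ribosomal protein genes took 5.53% of the counts against 4.80% and 5.02%. The nuclear RNA NEAT1 was at 119 CPM against 270 and 273 CPM, and MALAT1, another, at 910 CPM against 1303 and 1113 CPM. The p53 targets CDKN1A and MDM2 summed to 182 CPM against 402 and 607 CPM. The part of these measures in the lower pathway values was not tested.

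**Figure D2:**
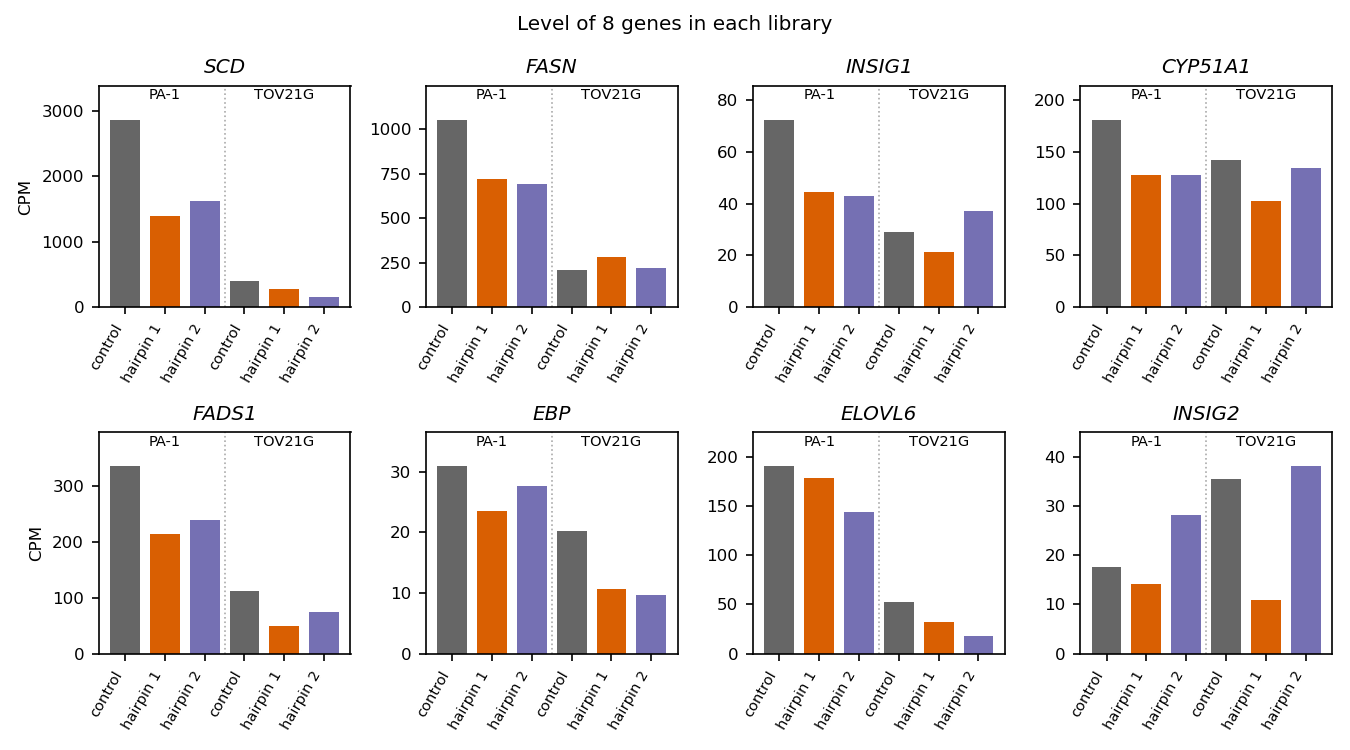
CPM of 8 members in each library, 1 bar per library and linear axes from 0, with PA-1 left and TOV21G right of the dotted line. SCD and FADS1 are below the control of their line in all 4 hairpin libraries, FASN and INSIG1 are so in both PA-1 hairpin libraries, and INSIG2 differs between hairpins in each line.

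In TOV21G the same genes were mixed in sign. Of the 40 members, 15 were lower with both hairpins, 6 were higher and 19 were split, where 31.9% of all genes tested were lower with both and 31.3% higher. At least 1.5-fold lower with both were 5 members (EBP, ACAT2, ELOVL6, PMVK and FADS1), beside 8.43% of all genes, and at least 1.5-fold higher were 0, beside 9.47%. The medians were -0.30 with hairpin 1 and -0.27 with hairpin 2, against 0 over all genes, and on log2(TPM + 1) they were -0.11 and -0.28 against 0.10 and 0. The target MEX3A passed neither method here (edgeR adjusted p = 0.417, DESeq2 adjusted p = 0.182). edgeR called 0 members and 0 of all genes (0%) at an adjusted p under 0.05. At an unadjusted p under 0.05 it had 5 members lower and 0 higher, beside 5.41% and 4.15% of all genes. DESeq2 called 0 members and 215 genes (1.28% of all genes tested). It gave no adjusted p to 3268 genes in TOV21G and 2941 in PA-1. NPC1L1 was among them in both lines, and had none for the mean of both lines or the difference between them. Members differed more between hairpins here: the median absolute difference between hairpins 1 and 2 was 0.57 log2 CPM in TOV21G, beside 0.47 over all genes, and 0.14 in PA-1, beside 0.21.

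The 5 members with an unadjusted p under 0.05 in TOV21G sat at separate steps. The error behind these p-values was shared with PA-1, whose hairpins lay closer together, so they may be too small for TOV21G. EBP, at chrX:48521808-48528716 in GRCh38, had 20.2 CPM in the control against 10.7 and 9.61 CPM. Both hairpin libraries were near 50% of the control, at 52.9% and 47.6%, and the log2 fold change was -0.99 (SE 0.27, edgeR adjusted p = 0.422). ACAT2 was at 41.9 CPM against 25.3 and 20.7 CPM (-0.86, SE 0.28, edgeR adjusted p = 0.472). PMVK was at 21.6 CPM against 12.7 and 14 CPM (-0.69, SE 0.27, edgeR adjusted p = 0.521). FADS1 was at 112 CPM against 49.4 and 74.0 CPM (-0.86, SE 0.31, edgeR adjusted p = 0.498). ELOVL6 was at 52.3 CPM against 32.1 and 18.0 CPM, hairpin 2 being the lower (-1.06, SE 0.39, edgeR adjusted p = 0.505). In all 5 the control was above both hairpin libraries.

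SCD in TOV21G stood at 405 CPM in the control, 282 CPM with hairpin 1 and 151 CPM with hairpin 2. Both were below the control, at 69.7% and 37.3% of it, and the hairpins were farther apart than in PA-1. The log2 fold change was -0.90 (SE 0.40, edgeR adjusted p = 0.555). Leaving out TOV21G hairpin 1 gave edgeR calls for SCD (-1.43, adjusted p = 0.0300), ELOVL6 (-1.54, adjusted p = 0.0312) and TM7SF2 (-1.26, adjusted p = 0.0395), which is 3 of 40 members beside 1489 of 16679 genes (8.93%) in the same fit. That fit compares 1 library with 1 library in TOV21G and borrows its error from PA-1. The members' summed CPM in TOV21G was 3444 in the control against 3027 and 3017, and without SCD it was 3039 against 2745 and 2866.

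Along the sterol branch of TOV21G, 3 of 7 mevalonate genes and 7 of 11 genes from squalene to cholesterol were lower with both hairpins, none was higher with both, and 4 of each group were split. Split were HMGCS1, MVK, MVD and IDI1 of the first group and SQLE, TM7SF2, NSDHL and SC5D of the second. HMGCS1 was at 124, 53.7 and 150 CPM in control, hairpin 1 and hairpin 2. TM7SF2, the sterol C14 reductase, had hairpin 2 as the lower library, at 17.7, 21.6 and 7.39 CPM. Of the regulators, 0 of 5 were lower with both, SCAP was higher with both and 4 were split. INSIG2 had 35.5 CPM in the control against 10.8 and 38.2 CPM, the largest gap between hairpins of any member with at least 5 CPM. INSIG1 was at 28.9, 21.5 and 37.3 CPM, below the control with hairpin 1 and above it with hairpin 2. SREBF1 was at 35.8, 39.2 and 27.2 CPM, and SREBF2 at 161, 146 and 188 CPM. STARD4 was at 83.3, 152 and 62.1 CPM, and its antisense transcript STARD4-AS1 was at 21.2, 21.1 and 9.34 CPM.

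In the fatty acid branch of TOV21G, 5 of 15 tested members were lower with both hairpins, 4 were higher and 6 were split. FASN was at 210 CPM in the control against 281 and 219 CPM, so the hairpin libraries lay above the control (0.26, SE 0.26, edgeR adjusted p = 0.773). ACACA was split at 156, 192 and 113 CPM, while ACACB was lower with both at 7.53, 5.54 and 2.69 CPM. FADS2 was lower with both at 253 CPM against 190 and 195 CPM. SCD5 was at 20.2 CPM against 39.4 and 21.0 CPM, with hairpin 2 close to the control. ELOVL1 was split at 84.4, 71.1 and 108 CPM, as was ELOVL5 at 160, 141 and 233 CPM. ACSS2, LPIN1 and GPAM were split too, at 72.5% to 148% of the control. ACLY was at 333, 344 and 342 CPM and ME1 at 45.0, 70.0 and 46.7 CPM, and on TPM ME1 was split.

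The 10 proliferation genes in TOV21G summed to 1638 CPM in the control against 766 and 625 CPM, and each of the 10 was at least 1.5-fold lower with both hairpins. The 5 clear cell markers did not move together. SPP1 was at 6019 CPM in the control against 1625 and 3765 CPM and ANXA4 at 650 CPM against 197 and 199 CPM. TFPI2 was higher with the hairpins, at 41.2 CPM against 519 and 443 CPM, as were KRT18, at 81.3 CPM against 139 and 122 CPM, and KRT7. The sum of all 5, most of it SPP1, was 6792 CPM against 2482 and 4533 CPM. Ribosomal protein genes took 4.99% of the counts against 4.54% and 4.24%, and CDKN1A and MDM2 summed to 1069 CPM against 2161 and 2821 CPM. NEAT1 was at 361 CPM against 1133 and 1068 CPM. MALAT1 was at 4315 CPM against 9429 and 18455 CPM, so its hairpin libraries lay far apart. The part of these measures in the pathway values was not tested.

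Set side by side, 15 members were lower with all 4 hairpin libraries, beside 15% of all genes tested, and ME1 was higher with all 4, beside 14.3%. The 15 were ACAT2, PMVK and FDPS of the mevalonate steps, FDFT1, LSS, CYP51A1, MSMO1, HSD17B7, EBP and DHCR7 of the later sterol steps, and ACACB, SCD, ELOVL6, FADS1 and FADS2 of the fatty acid branch. MSMO1 with hairpin 2 in PA-1 was at 99.9% of the control. In FDPS the hairpin libraries of each line lay close together, at 127 CPM against 97.1 and 106 CPM in PA-1 and at 106 CPM against 77.9 CPM with each hairpin in TOV21G. LSS was at 133 CPM against 110 and 108 CPM in PA-1 and 65.7 CPM against 53.3 and 47.4 CPM in TOV21G. In the mean of both lines, SCD had a log2 fold change of -0.91 (SE 0.28), FADS1 -0.71 (SE 0.22) and EBP -0.63 (SE 0.19), with edgeR adjusted p values of 0.558, 0.558 and 0.557. For that mean edgeR called 0 of all genes (0%) and had 8.21% at an unadjusted p under 0.05, and DESeq2 called 0.801% and 0 members. Among the DESeq2 calls was MEX3A (adjusted p = 0.00135), which edgeR left uncalled (adjusted p = 0.547). Without TOV21G hairpin 1, edgeR called SCD (-1.18, adjusted p = 0.0339) and ELOVL6, 2 of 40 members, beside 526 of 16679 genes (3.15%).

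Members lower with both hairpins of PA-1 and higher with both of TOV21G numbered 5 (SCAP, NPC1L1, ACLY, FASN and SCD5), beside 7.39% of all genes, and 0 members had the reverse pattern, beside 7.29%. On TPM, SCAP and SCD5 were split in PA-1. The effect in TOV21G less that in PA-1 was tested for each gene, and edgeR called 0 of 16855 genes (0%), with 642 (3.81%) at an unadjusted p under 0.05, none of them members. DESeq2 called 19 genes (0.113%), none of them members. The smallest p among members was for FASN, with a difference of 0.83 (SE 0.37, edgeR adjusted p = 1). For EBP the difference was -0.72 (SE 0.38), for ACAT2 -0.65 (SE 0.40) and for ELOVL6 -0.82 (SE 0.57). For INSIG1 it was 0.75 (SE 0.54), and for SCD, which was lower in both lines, it was 0.03 (SE 0.58). No member's effect was thus shown to differ between the lines.

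**Figure D3:**
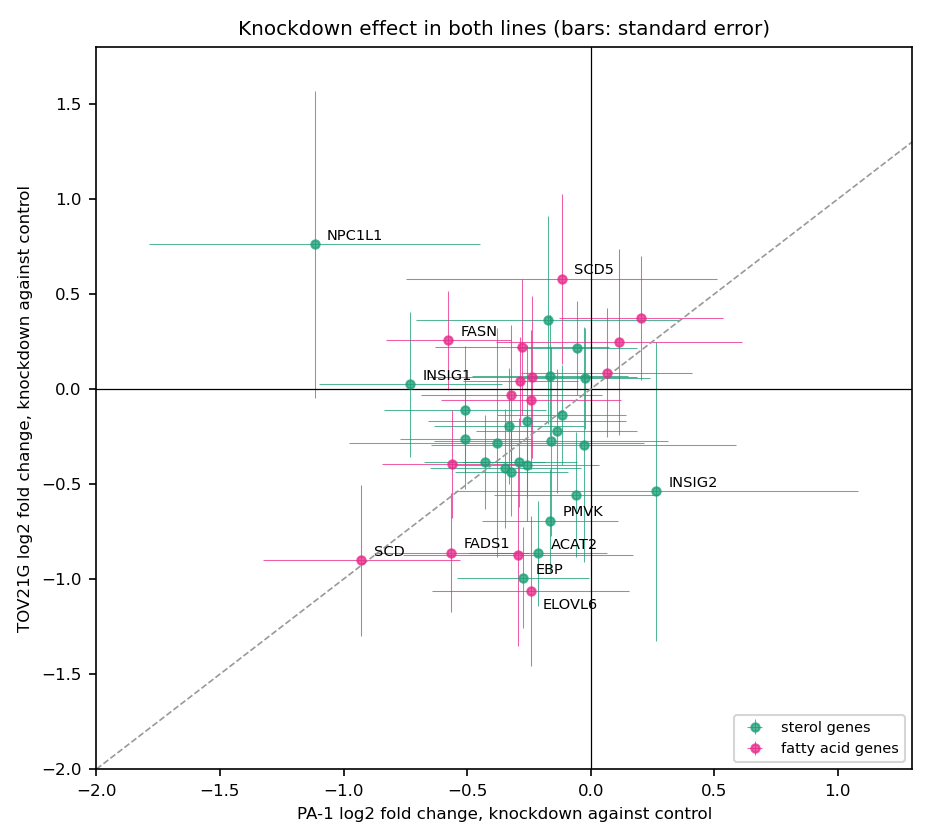
Fitted log2 fold change of knockdown against control in PA-1 (x axis) and TOV21G (y axis) for the 40 tested members, with bars of 1 standard error and a dashed line of equality; sterol genes are green and fatty acid genes pink. SCD lies at -0.93 and -0.90, near equality, FASN at -0.58 and 0.26, and EBP at -0.27 and -0.99.

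The last comparison set the level of the members in TOV21G against that in PA-1. Taking control and knockdown with equal weight, 18 of 40 members were lower in TOV21G and 4 higher at an edgeR adjusted p under 0.05, where 20.6% of all genes tested were lower and 20% higher. DESeq2 called 20 lower and 4 higher, beside 20.6% and 19.6% of all genes. All 3 TOV21G libraries lay below all 3 PA-1 libraries for 24 members, beside 30.8% of all genes, and above them for 5 members, beside 29.4%. Without PA-1 hairpin 1, 12 members were called beside 23% of all genes, and without PA-1 hairpin 2, 13 beside 24%. Without TOV21G hairpin 1, 33 members were called beside 59.6% of all genes, and without TOV21G hairpin 2, 29 beside 57.4%. ACAT2, MVK, IDI1, LSS, MSMO1, EBP, DHCR7, SREBF2 and INSIG1 lost their call without either PA-1 hairpin, and LPIN1 without PA-1 hairpin 1 (1.11, edgeR adjusted p = 0.101).

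SCD was 2.81 log2 lower in TOV21G (log2 fold change -2.81, SE 0.32, edgeR adjusted p = 0.00305), with 640 to 1250 TPM in PA-1 and 57.5 to 156 TPM in TOV21G and no overlap. FASN was also lower, at 182 to 278 TPM against 49.2 to 74.9 TPM (-1.91, SE 0.19, edgeR adjusted p = 0.00223). ELOVL6 had 49.6 to 65.9 TPM in PA-1 and 5.48 to 16.1 TPM in TOV21G (-2.27, SE 0.30, edgeR adjusted p = 0.00483). SC5D, the sterol C5 desaturase, had 66.2 to 85.0 TPM against 17.1 to 20.1 TPM (-1.98, SE 0.24, edgeR adjusted p = 0.00356). In the sterol branch 12 of 25 members passed, all lower in TOV21G, and in the fatty acid branch 6 of 15 were lower and 4 higher.

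The 4 members higher in TOV21G were SCD5, ELOVL1, ME1 and LPIN1. SCD5 had 0.480 to 0.550 TPM in PA-1 and 14.2 to 31.1 TPM in TOV21G (5.20, SE 0.42, edgeR adjusted p = 0.00126), so SCD was lower and SCD5 higher in TOV21G. Per length, SCD was above SCD5 in all 6 libraries. ELOVL1 had 30.2 to 34.3 TPM against 127 to 170 TPM (2.37, SE 0.26, edgeR adjusted p = 0.00274). ME1 had 15.4 to 17.6 TPM against 32.8 to 59.4 TPM (1.56, SE 0.24, edgeR adjusted p = 0.00714). Of the regulators, SREBF2 was lower in TOV21G (-1.04, SE 0.19, edgeR adjusted p = 0.0123) as was INSIG1 (-0.95, SE 0.27, edgeR adjusted p = 0.0431), while SREBF1 (-0.37, edgeR adjusted p = 0.261), SCAP (-0.45, edgeR adjusted p = 0.0919) and INSIG2 (0.60, edgeR adjusted p = 0.435) did not pass.

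**Figure D4:**
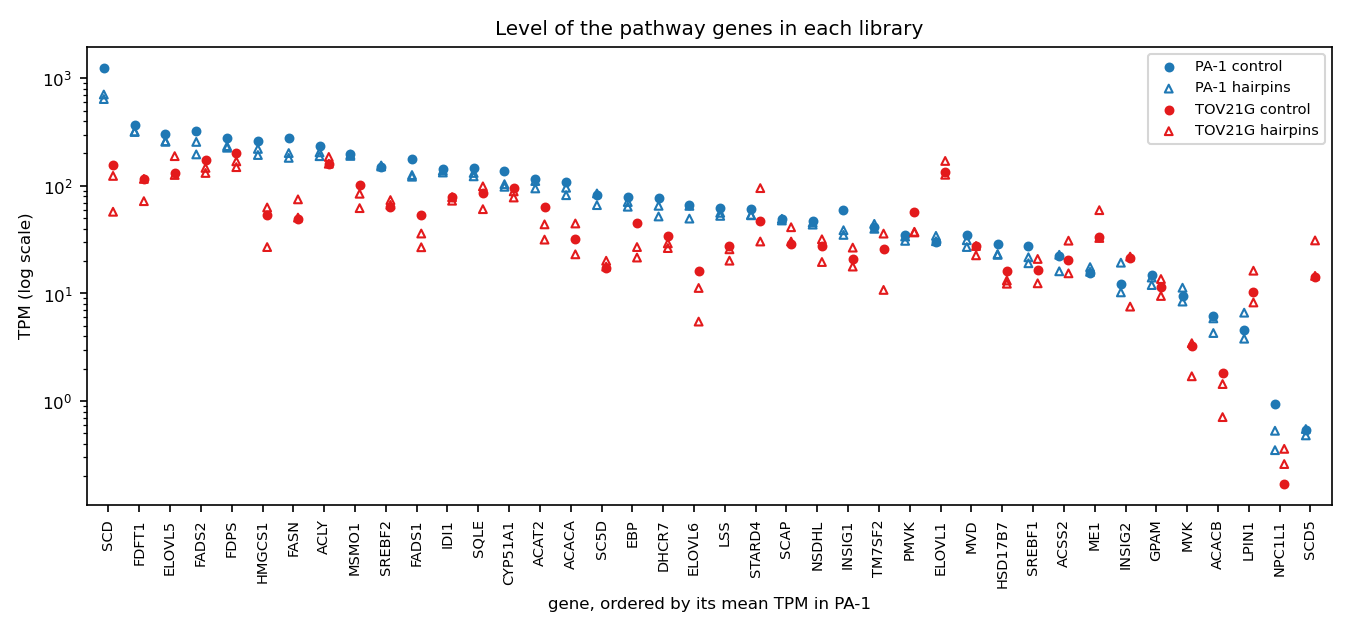
TPM of the 40 tested members in each library on a log scale, ordered by the mean in PA-1; filled circles are controls, open triangles hairpin libraries, blue PA-1 and red TOV21G. SCD leads in PA-1 at 1250 TPM in the control, and SCD5 lies under 1 TPM in PA-1 and at 14.2 to 31.1 TPM in TOV21G.

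Of 45 other genes of these pathways, listed by function, 44 were tested. In PA-1 5 of 18 sterol genes were lower with both hairpins and 12 higher, and 13 of 26 fatty acid and glycerolipid genes were lower and 9 higher. In TOV21G the counts were 7 lower and 6 higher of 18, and 14 lower and 4 higher of 26. Over all genes tested, 34% were lower and 33.8% higher with both hairpins in PA-1, and 31.9% and 31.3% in TOV21G. edgeR called none of them with knockdown in either line. In PA-1, DGAT2, the last enzyme of triglyceride synthesis, was at 3.59 CPM against 1.82 and 1.98 CPM (-0.91, SE 0.33), and NR1H3, the oxysterol receptor LXR alpha, at 5.85 CPM against 3.88 and 4.27 CPM (-0.52, SE 0.40). Higher there was ELOVL7, another elongase, at 3.02 CPM against 12.9 and 11.8 CPM (2.03, SE 0.28), with an adjusted p of 1 by edgeR and 0.00109 by DESeq2. CPT1A, which carries fatty acids into mitochondria for oxidation, was at 2.39 CPM against 9.77 and 6.87 CPM in PA-1 (1.79, SE 0.37) and at 30.9 CPM against 50.9 and 44.3 CPM in TOV21G (0.63, SE 0.33). In TOV21G, LPIN2, a phosphatidate phosphatase, was at 138 CPM against 64.3 and 64.0 CPM (-1.11, SE 0.22), with an adjusted p of 0.382 by edgeR and 0.0557 by DESeq2. ABCA1, the cholesterol exporter, was at 0.909 CPM against 2.18 and 13.8 CPM in TOV21G (3.13, SE 1.25), with an adjusted p of 0.527 by edgeR and 0.0415 by DESeq2. LRP8, a lipoprotein receptor, was at 37.0 CPM against 12.5 and 15.3 CPM in TOV21G (-1.41, SE 0.27), with an adjusted p of 0.382 by edgeR and 0.0214 by DESeq2.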

How the data were processed

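For each of the 6 libraries the authors deposited a gene table with the expected count, which is the estimated number of reads per gene, and TPM, per the file headers. Per the submitters' processing notes the tools were cutadapt 1.12, STAR 2.5.3a, RSEM 1.2.31 and edgeR 3.26.8 with build hg38, and no role is given for each. Per the labels' protocols the library kit marks the strand, but the strand setting of the counting is not given in the sources used here.

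Tests used R 4.3.3 and edgeR 4.0.16 after each expected count had been rounded to an integer. TMM scaling was applied, filterByExpr was run on the 4 groups of line and hairpin target, and the quasi-likelihood F test had 1 mean per group and 2 residual degrees of freedom. Benjamini-Hochberg adjustment ran over all 16855 genes tested, with a threshold of 0.05. The standard error (SE) follows from the fold change and its F statistic, as the size of the log2 value over the root of F. The calculation was tested on simulated data with the same dispersion set for every gene, where the check was that estimated fold changes lay near those put in. It does not show how the test behaves at the spread of these data. Single libraries were compared on log2 CPM, to which edgeR's prior count of 2 was added. DESeq2 1.42.0, other scalings and filters, log2(TPM + 1), the hairpin number as a block and each hairpin left out were the alternatives. The hairpins of a line differed beyond sampling noise, with a chi-square per degree of freedom of 21.2 in PA-1 and 114 in TOV21G, and were kept as separate libraries.

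The members and lists were chosen with earlier results of these data known. Values in every library were given for the regulators, paralog pairs and elongases. For up to 6 members per line and direction by the smaller hairpin difference, and for those most different between hairpins, they were given at least in the line concerned. They were given in every library for those of opposite sign. The same holds for those with the smallest p for a difference in effect between lines, except EBP and ACAT2, given in TOV21G. For the level between lines, those with the smallest p in each direction were named. Other members named with values were chosen after their values were seen. Of the other pathway genes, those named had the smallest p per line and direction. A listed marker and a listed pathway gene are not reported here. Promoter windows came from RefSeq on GRCh38.p14. Reads carried no molecular identifiers, so floors cover counting error only.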

Additional observations from a re-analysis of the deposited data

Results flagged for a closer look

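For 5 members both hairpin libraries were below the control in PA-1 and above it in TOV21G. Their TOV21G effects minus their PA-1 effects were, in log2 units, 0.27 (SE 0.34) for SCAP, 1.88 (SE 1.06) for NPC1L1, 0.32 (SE 0.33) for ACLY, 0.83 (SE 0.37) for FASN and 0.70 (SE 0.77) for SCD5. These differences were tested, and edgeR's adjusted p was 1 for each. NPC1L1 rested on 6 to 32 counts per library, with 2.01, 1.09 and 0.763 CPM in PA-1 and 0.390, 0.527 and 0.806 CPM in TOV21G. SCD5 in PA-1 rested on 11 counts in the control against 11 and 12 with the hairpins, so its sign there came from the scaling. On TPM both SCD5 and SCAP were split in PA-1. SCAP was at 58.7 CPM in the TOV21G control against 73.5 and 62.7 CPM with the hairpins.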

How the results depend on the processing

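The refits followed part of the named genes, each in chosen comparisons. Under the count-based settings that used all 6 libraries, their fitted fold changes kept their sign, except for INSIG1 in TOV21G and the SCD difference between lines. INSIG1 was 0.02 and became -0.012 with the hairpin number as a block and -0.0020 without the filter on low counts. The SCD difference was 0.03 and became -0.039 and -0.00034. Hairpin numbers denote reagents, so libraries of the same number in the 2 lines share the hairpin named in their titles, and this gives only 2 pairs. The hairpin 2 minus hairpin 1 differences of the 2 lines correlated at 0.236 over 16855 genes and at 0.322 over the 40 tested members. The source of that correlation was not tested. With the block edgeR called 13 genes in PA-1, 36 in TOV21G and 22 in the mean, against 0 without it, and DESeq2 called 36, 215 and 135, and 19 for the difference between lines. No member was among the calls in these 4 comparisons under either setting. Leaving out 1 hairpin library gave 0 to 1489 genes and 0 to 3 members in TOV21G, 0 to 526 genes and 0 to 2 members in the mean, and 3850 to 9946 genes and 12 to 33 members in the level of TOV21G against PA-1. On log2(TPM + 1) 3 members were higher with both hairpins of PA-1. Among the genes followed, signs changed on leaving out a hairpin with the ranges below. Not all of the 6 members split between hairpins in PA-1 and the 19 in TOV21G were followed. In PA-1: ELOVL1 -0.073 to 0.19, INSIG2 -0.31 to 0.67, LPIN1 -0.36 to 0.47, SREBF2 -0.057 to 0.011. In TOV21G: ACACA -0.47 to 0.30, ELOVL1 -0.25 to 0.35, ELOVL5 -0.19 to 0.54, HMGCS1 -1.21 to 0.28, INSIG1 -0.43 to 0.37, INSIG2 -1.72 to 0.10, SREBF1 -0.40 to 0.13, SREBF2 -0.14 to 0.23, TM7SF2 -1.26 to 0.28. For the SCD difference between lines the range was -0.50 to 0.40. The cause was not tested. For NPC1L1 and SCD5 in PA-1, depth limits what could be seen.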

Other observations

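Besides LRP8, the very low density lipoprotein receptor VLDLR, chosen after its values were seen, was higher with both hairpins in PA-1 and lower with both in TOV21G. VLDLR stood at 57.8 CPM in the PA-1 control against 110 and 154 CPM, and at 191 CPM in the TOV21G control against 95 and 140 CPM. Its TOV21G effect minus its PA-1 effect was -1.89 (SE 0.52), with an adjusted p of 1 by edgeR and 0.419 by DESeq2. LRP8 had the same signs, at 131 CPM against 197 and 246 CPM in PA-1 and 37.0 CPM against 12.5 and 15.3 CPM in TOV21G, and a difference of -2.17 (SE 0.40) with an adjusted p of 1 by edgeR and 0.0355 by DESeq2. Both are uptake receptors of the same family. ELOVL7 was at 98.3 CPM in the TOV21G control against 81.3 and 88.9 CPM. Its TOV21G effect minus its PA-1 effect was -2.24 (SE 0.36), with an adjusted p of 1 by edgeR and 0.0412 by DESeq2.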
